A study of Mus musculus with 8 samples.

Results

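The early growth response factors Egr1, Egr2, Egr3 and Egr4 and the corepressors Nab1 and Nab2 were examined in the medial prefrontal cortex of mice 1 h after a single training session. These 6 genes were taken by symbol from the 22609 rows of the deposited expression table, and all 6 were measured in all 8 samples. The 4 conditioned samples came from B6.SJL mice, aged 3 months, that spent 3 min in a chamber and then were given foot shocks, 2 in number, at 0.8 mA, each lasting 2 s, 30 s apart, which is known as contextual fear conditioning. The 4 context control samples came from B6.SJL mice of the same age that were placed in the same chamber without a shock. Both groups therefore shared handling and a new environment, and no sample came from mice left in the home cage. The tissue was the anterior cingulate subregion from both hemispheres, and the study asked how the neocortex is remodelled early in memory encoding.

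Egr proteins are zinc finger transcription factors that bind GC-rich sites. Neurons switch their genes on within minutes of activity through the ERK kinase cascade, serum response factor with its Elk partners at CArG boxes, and CREB at cyclic AMP response elements (CRE). Nab proteins bind members of the Egr family, though not necessarily all of them, and recruit repressors such as the NuRD complex. Nab2 is itself induced by Egr factors and so closes a negative feedback loop, whereas Nab1 is expressed more steadily.

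Values are gene read counts divided by a factor per sample, called scaled read counts here. Recovered gene reads lay between 1992452 and 3565356 per sample, and the members between 47 and 2045 reads per sample. All 6 cortical excitatory neuron markers, among them Slc17a7, Camk2a and Neurod6, were above 0 in all 8 samples, and their summed level was 8081 to 10978 in controls and 7893 to 11796 after conditioning. The 6 striatal markers, for tissue outside the cortex, summed to 474 to 847 and 541 to 724. The libraries differed among themselves more than the groups did. The first principal component over 8739 genes (mean value 50 or more) held 60.6% of the variance, with scores of 11.4, 21.6, -28.8 and -9.66 in control replicates 1 to 4 and 27.0, 31.2, -10.9 and -41.8 in conditioning replicates 1 to 4. These scores followed how strongly each library favoured GC-rich transcripts (the GC slope, the change in a gene's log2 deviation per 10 percentage points of transcript GC content), with Pearson r = 0.998 and Spearman rho = 1.0 (exact permutation p = 2.5e-05 and 5.0e-05, n = 8, and r = 0.997 without the 2 samples with the most extreme scores). The GC slope was 0.17, 0.30, -0.35 and -0.12 in control replicates 1 to 4 and 0.36, 0.43, -0.18 and -0.61 in conditioning replicates 1 to 4, so it did not separate the groups. It did range more widely after conditioning. Conditioning replicates 1 and 2 lay above every control and conditioning replicate 4 below every control. The main results that move with it are given below also after a correction for it.

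None of the 6 members rose or fell between conditioned and control cortex by limma on log2(value + 1), with 0 higher and 0 lower. Over all 14704 genes tested, 0 passed in either direction (0%), the smallest adjusted p was 0.9998, and 397 genes (2.7%) had an unadjusted p under 0.05. No member was among those 397, and in no member did the groups separate, against 1.92% of all tested genes. On recovered reads, edgeR and DESeq2 each called 0 genes and 0 members. At an unadjusted p under 0.05 edgeR had 385 genes (2.62%) and DESeq2 340 (2.31%). In bulk tissue, fewer responding cells and less RNA per cell cannot be told apart. p-values measure the spread between the samples that the study calls biological replicates.

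Egr1, the most studied member and a common marker of neuronal activity, read 1698, 1919, 1743 and 1917 in control replicates 1 to 4 and 1990, 2376, 1570 and 1368 in conditioning replicates 1 to 4. The controls lay close together, conditioned samples 1 and 2 lay above every control, and conditioned samples 3 and 4 lay below every control. Its log2 change was -0.03 (95% interval -0.39 to 0.34, limma adjusted p = 0.9998), so the groups differed by less than the spread between samples. On the fold scale that interval ran from 0.762 to 1.27.

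Egr3, which is needed for muscle spindle development and is induced with Egr1 in neurons, read 141, 132, 91.8 and 83.7 in control replicates 1 to 4 and 222, 283, 64.2 and 46.1 in conditioning replicates 1 to 4. It showed the same arrangement as Egr1 with wider gaps, conditioned samples 1 and 2 above all controls and 3 and 4 below all controls. Among all tested genes 414 (2.82%) had this arrangement. Control samples averaged 112 ± 28.6 and conditioned samples 154 ± 117 (SD, n = 4). The log2 change was 0.10 (interval -0.97 to 1.17, limma adjusted p = 0.9998). The highest conditioned sample was 6.14 times the lowest, against 1.69 times among controls. Counting error was smaller than this range. The lowest sample, conditioning replicate 4, rested on 48 reads, with a 95% Poisson interval of 33.95 to 61.1 in scaled reads, and the highest, conditioning replicate 2, rested on 213 reads (246 to 323). These intervals cover counting error only.

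Egr2, known for its part in hindbrain patterning and Schwann cell myelination, read 195, 110, 278 and 145 in control replicates 1 to 4 and 195, 391, 124 and 148 in conditioning replicates 1 to 4. Conditioning replicate 2 was the highest sample and the only one outside the control range. The log2 change was 0.17 (interval -0.59 to 0.94, limma adjusted p = 0.9998).

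Egr4, which is required for normal sperm development and is also activity-induced in the brain, read 75.6, 91.3, 135 and 158 in control replicates 1 to 4 and 135, 175, 95.6 and 88.3 in conditioning replicates 1 to 4. The groups overlapped almost fully, and controls 3 and 4 stood above controls 1 and 2, unlike Egr3. The log2 change was 0.11 (interval -0.51 to 0.73, limma adjusted p = 0.9998).

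Nab1, the steadier corepressor, read 209, 175, 255 and 211 in control replicates 1 to 4 and 127, 194, 191 and 249.4 in conditioning replicates 1 to 4. Only conditioning replicate 1 lay outside the control range, below it. Nab1 had the smallest p of the 6 (log2 change -0.18, interval -0.65 to 0.28, limma unadjusted p = 0.405, adjusted p = 0.9998), and it ranked 4776 by p among all 14704 genes tested.

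Nab2, the inducible corepressor, read 154, 193, 83.7 and 111 in control replicates 1 to 4 and 233, 301, 87.5 and 74.8 in conditioning replicates 1 to 4. Conditioned samples 1 and 2 were above every control, and conditioned sample 4 was below every control. The log2 change was 0.18 (interval -0.73 to 1.098, limma adjusted p = 0.9998), and a doubling lay within the interval for Egr3 and Nab2 but above it for Egr1, Egr2, Egr4 and Nab1.

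**Figure D1:**
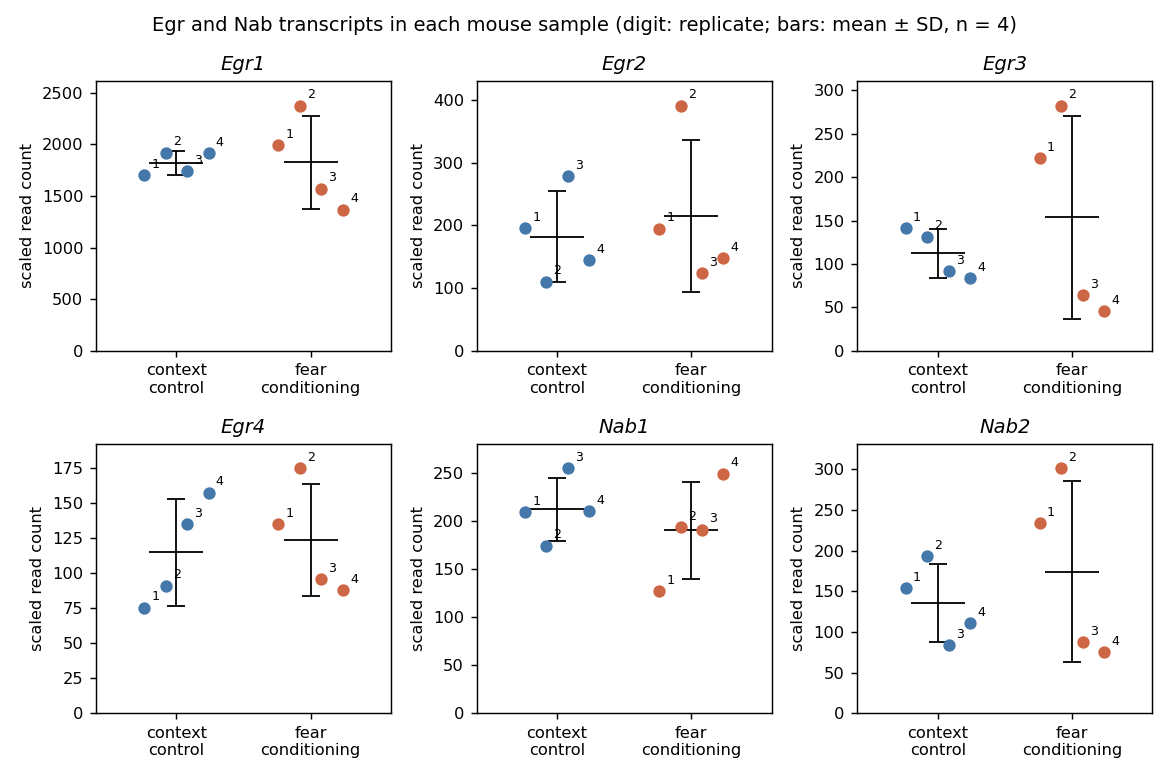
Scaled read count (vertical axes, from 0) of each member in the 4 context control and 4 fear conditioning samples, with the mean ± SD (n = 4) as bars and the replicate number beside each point. In Egr1 and Egr3 conditioned samples 1 and 2 lie above, and 3 and 4 below, all controls.

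**Figure D2:**
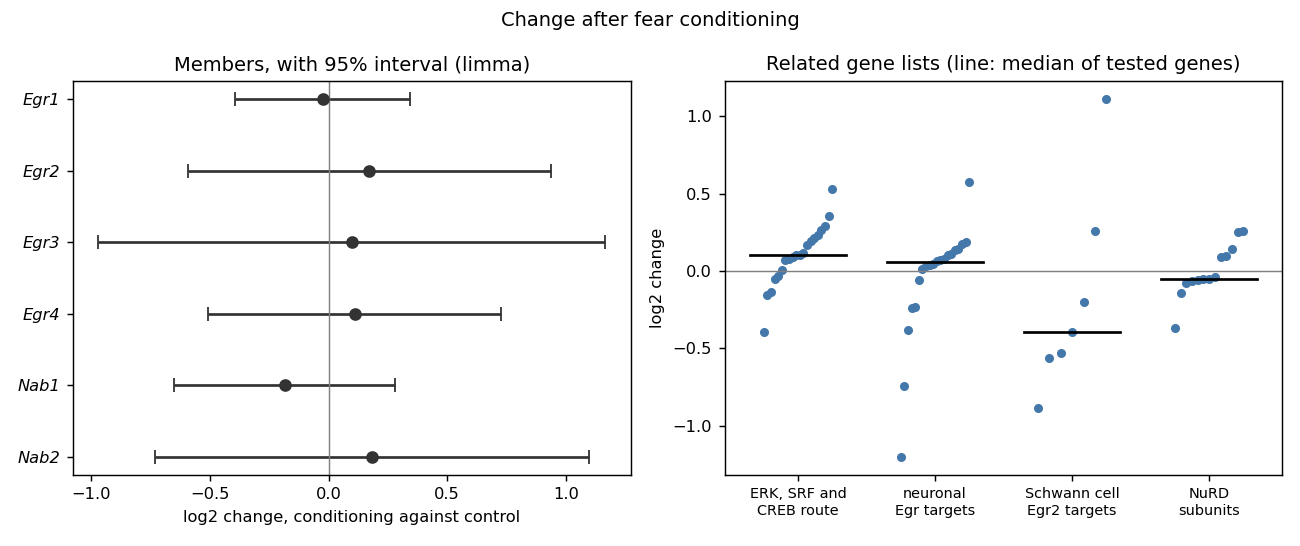
Left, the log2 change (conditioning against control) of each member with its 95% interval from limma. Right, the log2 change of every tested gene of 4 related lists, with a line at each list's median. All 6 intervals include 0, and no listed gene passed the test.

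Divided by the length of the longest annotated transcript, which allows levels of different genes to be set side by side, Egr1 had the highest level at 406 scaled reads per kb over both groups. Egr2 followed at 66.9, Nab2 at 60.0, Egr4 at 55.5, Nab1 at 52.0 and Egr3 at 33.7 per kb. The lowest Egr1 sample (305 per kb) stood above the highest sample of any other member (132 per kb, Egr2), whereas neighbours from Egr2 to Egr3 lay within each other's ranges over the samples. With the median transcript length, 3 of the 6 members kept their place in the order, Egr1 first, Egr2 next and Egr3 last, and the highest Egr2 sample (434 per kb) then stood above the lowest Egr1 sample (364 per kb). Reads of a member relative to Egr1 within the same library are a ratio that no scaling factor enters. Nab2 reads were 9.05%, 10.1%, 4.80% and 5.79% of Egr1 reads in control replicates 1 to 4 and 11.7%, 12.7%, 5.57% and 5.47% in conditioning replicates 1 to 4. Egr3 reads were 8.31%, 6.86%, 5.26% and 4.37% of Egr1 reads in the controls and 11.2%, 11.9%, 4.09% and 3.37% in the conditioned samples. Both ratios were highest in conditioned samples 1 and 2, and Egr3 was lowest relative to Egr1 in conditioned samples 3 and 4. Both were also higher in each of the 4 libraries of positive GC slope than in any of the 4 of negative slope, and the ratios were not corrected for it.

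The spread between samples was larger after conditioning for 5 of the 6 members, all but Egr4, and 64.2% of all tested genes showed a larger spread there. The mean absolute deviation from the group mean, on the log2 scale, was 0.36 in controls and 1.26 after conditioning for Egr3, 0.48 and 0.98 for Nab2, and 0.09 and 0.33 for Egr1. After GC correction the difference in this deviation (conditioning minus control) turned from 0.24 to -0.16 for Egr1, went from 0.50 to 0.26 for Nab2 and from -0.04 to -0.39 for Egr4, and stayed near its value for Egr3 (0.90 and 0.89). Corrected Egr1 and Egr4 were lower in the libraries of positive GC slope, as given below, so their corrected spread is not free of the slope. Egr3 was the 1 member past the threshold in a limma test of these deviations over all genes (adjusted p = 0.0498), and 56 genes (0.381%) passed in all. That call lies at the threshold and did not hold with deviations from the group median (adjusted p = 0.088), with a variance trend (0.358) or with GC correction (0.0532), nor with any of the 8 samples left out (0.113 to 0.566, limma). In simulated data the same test also called genes whose spread had not been altered, some of which a threshold on adjusted p allows. That simulation drew each gene independently and held no GC slope. It therefore cannot show how often the test errs in these libraries. Nab2 (adjusted p = 0.287) and Egr1 (0.416) did not pass. At an unadjusted p under 0.05 with the larger spread after conditioning stood 3 members, Egr1, Egr3 and Nab2, and 8.04% of all tested genes.

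Over the 8 samples, Egr3 and Nab2 rose and fell together more closely than any other members, with Pearson r = 0.952 of log2 values (exact permutation p = 0.000372, adjusted p = 0.00558 over the 15 member relations) and Spearman rho = 0.905 (p = 0.00456, adjusted p = 0.0543). Without the 2 samples farthest from the Egr3 median, conditioning replicates 2 and 4, r was 0.911 (adjusted p = 0.25). Egr1 ran with Egr3 (r = 0.883, exact permutation p = 0.00392, adjusted p = 0.0247; rho = 0.833, p = 0.0154, adjusted p = 0.0769) and with Nab2 (r = 0.855, p = 0.00494, adjusted p = 0.0247; rho = 0.881, p = 0.00724, adjusted p = 0.0543). Those values fell to r = 0.644 and r = 0.690 (adjusted p = 0.608 for each) without conditioning replicates 2 and 4, so both relations were weaker without these samples. Leaving out the extreme samples narrows the range and lowers the sample number, so it cannot show what the relations rest on. The other 12 relations did not pass. Nab1 against Nab2 gave r = -0.691 (exact permutation p = 0.0474, adjusted p = 0.142; rho = -0.714, p = 0.0576, adjusted p = 0.173), and Egr2 and Nab2 had r = 0.394 (adjusted p = 0.417; rho = 0.214, adjusted p = 0.663). With 4 samples per group, no value within a group was computed. These p-values treat the 8 samples as independent and take no account of the replicate numbers, whose samples deviated together.

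**Figure D3:**
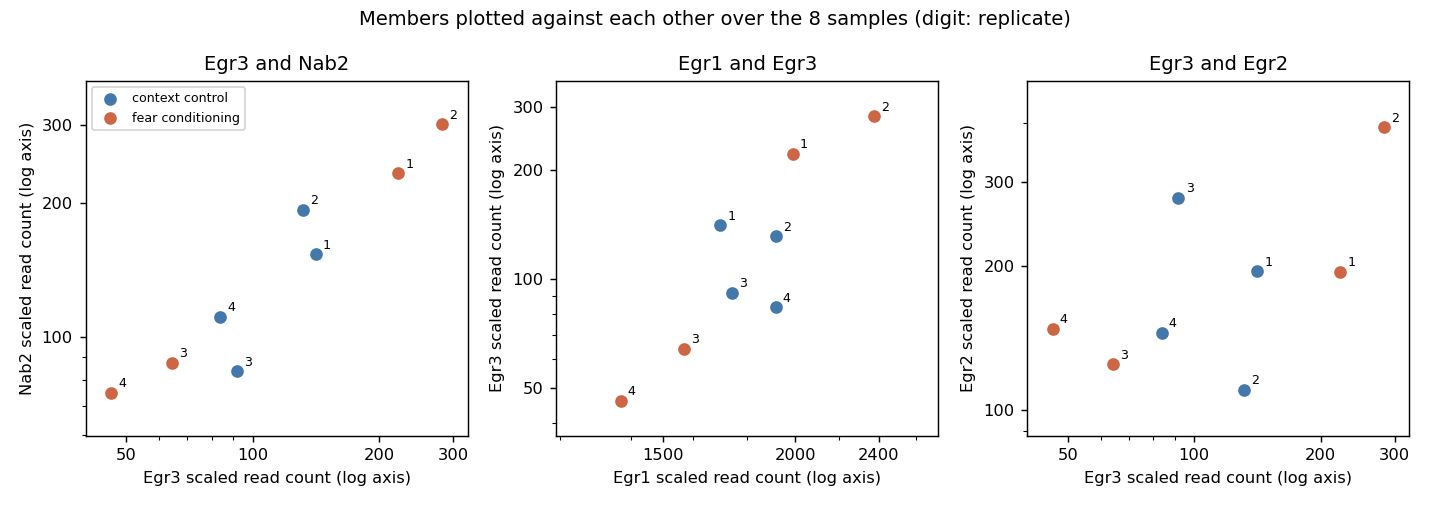
Scaled read counts of 2 members against each other on log axes, 1 point per sample, coloured by group and numbered by replicate. Egr3 and Nab2 fall along a rising band (r = 0.952), Egr1 and Egr3 less tightly (r = 0.883), and Egr2 is scattered against Egr3 (r = 0.586).

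The same relations moved with the GC slope of the libraries. Nab2 was in exactly the order of the GC slopes (rho = 1.0, exact permutation p = 5.0e-05, the smallest that a two-sided test of rho over 8 samples can give, adjusted p = 0.000298 over 12 relations; r = 0.958, p = 0.000546, adjusted p = 0.00327). Egr3 followed them too (r = 0.924, exact permutation p = 0.00149, adjusted p = 0.00595; rho = 0.905, p = 0.00456, adjusted p = 0.0137), as did Egr1 (r = 0.830, p = 0.00878, adjusted p = 0.0211; rho = 0.881, p = 0.00724, adjusted p = 0.0145). Nab1 went against them (r = -0.748, exact permutation p = 0.0263, adjusted p = 0.0394; rho = -0.714, p = 0.0576, adjusted p = 0.0864). Egr2 (r = 0.262, exact permutation p = 0.529; rho = 0.214, p = 0.619) and Egr4 (r = 0.251, p = 0.538; rho = 0.452, p = 0.267) did not pass. Without the 2 samples of most extreme slope, conditioning replicates 2 and 4, r was 0.981 for Nab2, 0.846 for Egr3, 0.564 for Egr1 and -0.808 for Nab1. Transcript GC content was 68.2% for Egr4, 60.1% for Nab2, 57.3% for Egr1, 51.4% for Egr2, 51.3% for Egr3 and 47.2% for Nab1. Egr3 therefore followed the slope with a GC content at percentile 58.4 of the tested genes, while Nab2 was at percentile 95.8 and Egr4, which did not follow it, at percentile 99.9.

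**Figure D4:**
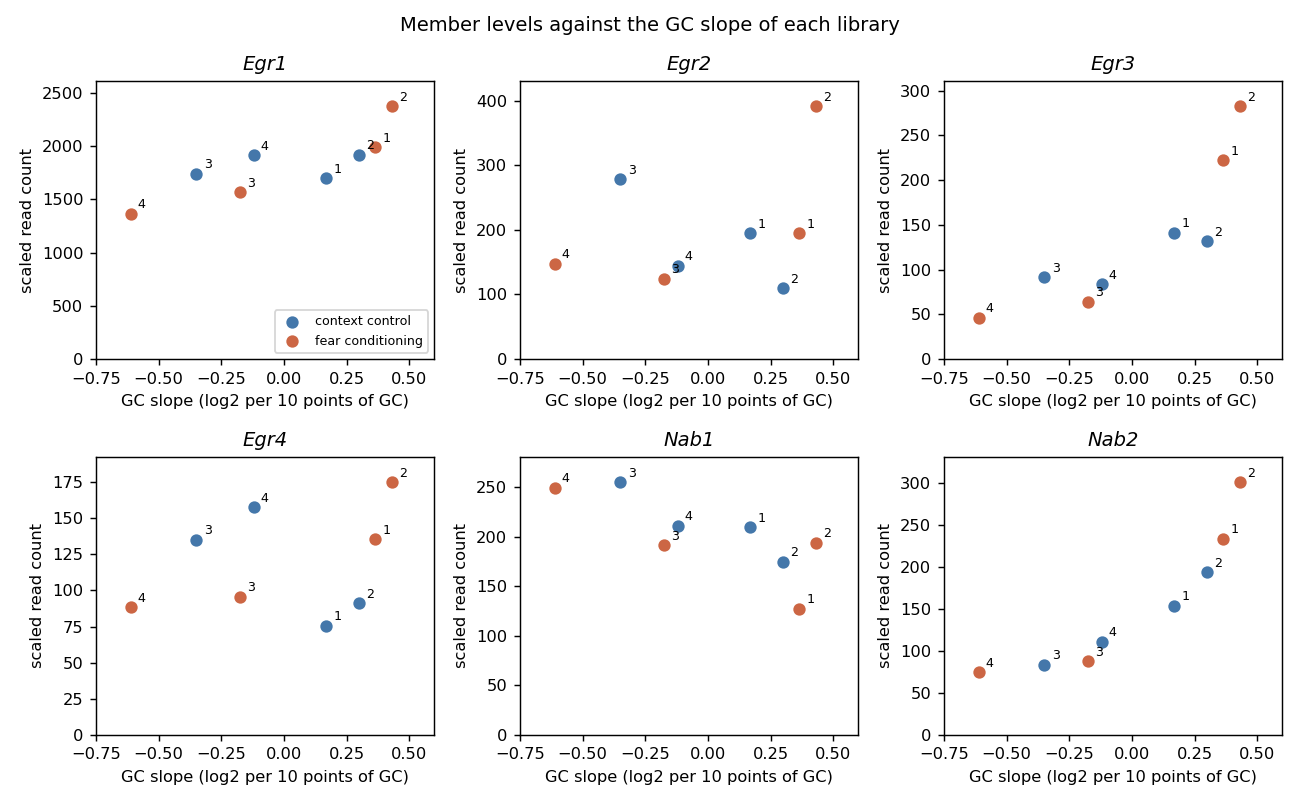
Scaled read count of each member (vertical axes, from 0) against the GC slope of its library, in log2 units per 10 percentage points of transcript GC content, with groups in colour and replicate numbers beside the points. Nab2 climbs in step with the slope, Egr3 and Egr1 climb with scatter, Nab1 declines, and Egr2 and Egr4 show no ordered course.

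A correction that subtracted each library's dependence on GC content, as fitted over many genes, treated the 2 closest members differently. It did not free every member from the GC slope. Nab2 became far more even, at 118 to 142 in controls and 101 to 195 after conditioning, and its within-group SD went from 0.80 to 0.29 on the log2 scale. Its conditioned samples 1 and 2 (161 and 195) remained above all controls. Conditioned sample 3 (101) then lay below all controls, and sample 4 (134) lay within their range. Egr3 kept nearly all of its spread, at 82.9 to 139 in controls and 48.4 to 270 after conditioning, with an SD of 0.94 before and 0.90 after, and conditioned samples 1 and 2 remained above and 3 and 4 below all controls. The correction acts through a gene's own GC content, which for Egr3 lay at percentile 58.4, so it could move Egr3 little. Corrected Egr3 was 139, 128, 214 and 270 in replicates 1 and 2 of the controls and conditioned samples, of positive slope. In replicates 3 and 4, of negative slope, it was 97.9, 82.9, 63.3 and 48.4. Whether the remaining spread goes with the slope was not tested. In Egr1 the arrangement was lost, with 1496 to 2302 in controls and 1505 to 2123 after conditioning. Corrected Egr1 was lower in every library of positive slope (1496, 1526, 1505 and 1702) than in any of negative slope (2302, 2140, 1733 and 2123). Before the correction Egr1 had risen with the slope, and its SD went from 0.26 to 0.27. The Egr3 and Nab2 relation fell to r = 0.794 (exact permutation p = 0.0176, adjusted p = 0.132; rho = 0.690, p = 0.0694, adjusted p = 0.369), and that of Egr1 and Egr3 turned to r = -0.598 (p = 0.124, adjusted p = 0.372; rho = -0.619, p = 0.115, adjusted p = 0.369). The relation of Egr1 and Nab2 also turned, to r = -0.365 (exact permutation p = 0.384, adjusted p = 0.520; rho = -0.524, p = 0.197, adjusted p = 0.369). Nab1 and Nab2 went to r = -0.220 (exact permutation p = 0.573, adjusted p = 0.662; rho = -0.190, p = 0.665, adjusted p = 0.754). Egr1 and Egr4, both GC-rich, were then the only members to pass (r = 0.965, exact permutation p = 0.000893, adjusted p = 0.0134; rho = 0.857, p = 0.0107, adjusted p = 0.161). Egr4 lies at the end of the GC range, at percentile 99.9 of the tested genes, and its SD went from 0.47 to 0.81. The reason for that rise was not tested. Corrected Egr4 was also lower in every library of positive slope (64.4, 59.4, 77.1 and 91.1) than in any of negative slope (199, 184, 120 and 219). The relation of Egr1 and Egr4, and the turned signs of Egr1, therefore cannot be read as free of the GC slope. No member differed between groups after the correction, at log2 changes of -0.06 for Egr1, 0.15 for Egr2, 0.07 for Egr3, 0.10 for Egr4, -0.21 for Nab1 and 0.15 for Nab2.

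**Figure D5:**
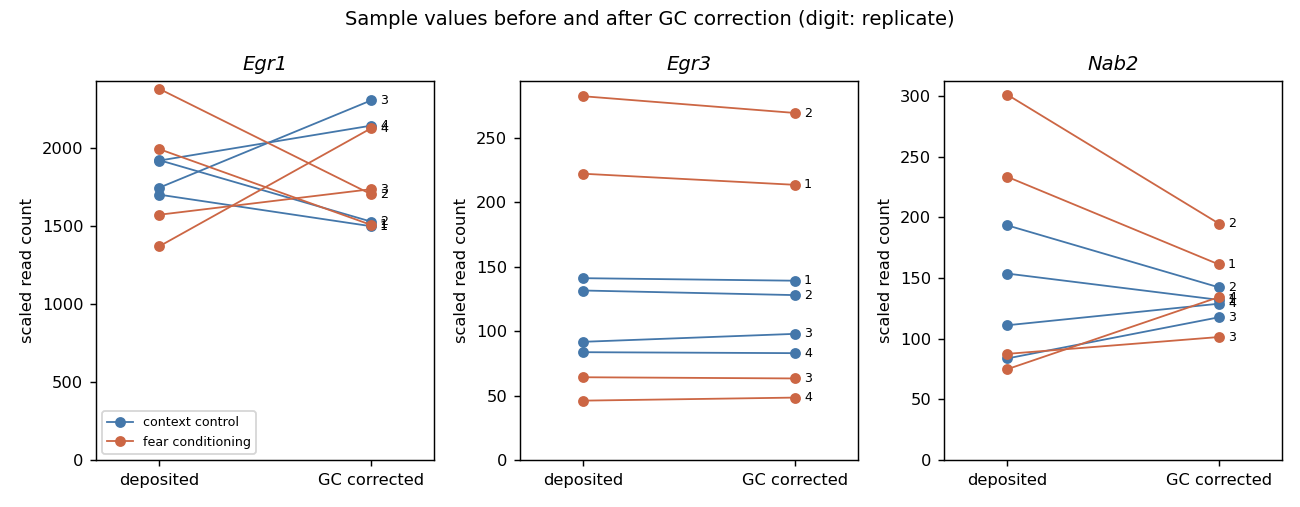
Scaled read count (vertical axes, from 0) of Egr1, Egr3 and Nab2 in each sample as deposited and after GC correction, joined by a line per sample. Nab2 closes up from 74.8 to 301 down to 101 to 195, Egr3 keeps its order of samples, and Egr1 is reordered.

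Other measures of the libraries were set beside these members. Recovered reads per sample gave no relation past the threshold with any of the 6 (smallest adjusted p = 0.343 for r and 0.2493 for rho, exact permutation over 8 samples). Mean levels of excitatory neuron, interneuron, astrocyte, oligodendrocyte, microglia, endothelial and striatal markers gave none with Egr1, Egr2, Egr3 or Nab2 among 28 relations (smallest adjusted p = 0.63 for r and 0.3 for rho). The oligodendrocyte sum ranged from 1510 to 6905 in controls and from 1475 to 3049 after conditioning, and the endothelial sum from 892 to 1263 and from 644 to 1160. All 6 excitatory neuron markers had a higher mean log2 value after conditioning, with none past the threshold. All 6 markers of astrocytes, oligodendrocytes, microglia and endothelium each had a lower mean log2 value after conditioning, with none past the threshold, and no marker of these types was at 0 in all samples. Of all 14704 tested genes, 7612 lay higher and 7092 lower. Interneuron markers lay 2 higher and 4 lower, and striatal markers 3 and 3. At a limma unadjusted p under 0.05 stood 1 astrocyte, 2 endothelial and 1 striatal marker, beside 2.7% of all tested genes. The groups separated in 1 astrocyte marker, beside 1.92% of all tested genes. The relation of the marker lists to Egr4 and Nab1 was not tested.

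The genes whose levels ran most like each member were read off over the 8 samples among 8738 others (mean value 50 or more). These r values are descriptions of the closest of many genes and carry no test. They were taken from values without GC correction. Nab2, Egr3 and Egr1 rose with the GC slope and Nab1 fell with it. For these members a shared course cannot be told apart from a shared dependence on the library. Egr2 had a single gene at r of at least 0.9, Fosl2 (r = 0.968), which encodes an AP-1 transcription factor, where the median gene had 61. Fosl2 read 387, 308, 522 and 348 in control replicates 1 to 4 and 436, 671, 344 and 409 in conditioning replicates 1 to 4, so its 2 highest samples were those of Egr2, conditioning replicate 2 and control replicate 3. Rai2 was next at r = 0.873. Egr3 ran with Tmem198 (r = 0.988) and Chrm4, a muscarinic acetylcholine receptor (r = 0.986), and 431 genes (4.93%) reached 0.9. Nab2 ran with Ubtf, a factor of ribosomal RNA transcription (r = 0.991), and Pik3r2, a phosphoinositide 3-kinase regulatory subunit (r = 0.987), and 766 genes (8.77%) reached 0.9. Nab2 ranked 55 among genes like Egr3, and Egr3 ranked 180 among genes like Nab2, so many other genes shared their course as closely. Egr1 ran with Pfdn1 (r = 0.981) and Rps21 (r = 0.976), Egr4 with Rps20 (r = 0.881) and Arpc2 (r = 0.850), and Nab1 with Tpm4 (r = 0.993) and Serp1 (r = 0.952). Rps20 and Rps21 encode ribosomal proteins, Tpm4 a tropomyosin, and 0 genes reached 0.9 with Egr4.

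Promoter sequence is given for 4 members, Egr2, Egr4, Nab1 and Nab2, and not for Egr1 and Egr3, credited to RefSeq on GRCm38.p6. The 250 bases before the start site are shown to set out the sites through which these genes are known to be switched on, and capitals mark matches on either strand. The motifs searched were the Egr site GCGNGGGCG, the core CRE TGACG, the full CRE TGACGTCA, which contains the core, and the CArG box. The CArG box was present in 1.47%, the core CRE in 17.8%, the full CRE in 1.55% and the Egr site in 4.70% of all 32851 promoter windows of this length. Egr2 has 5 annotated windows, of which 3 overlap and hold the same matches, and the most upstream of those 3 is shown, chosen for its matches. Of the other 2 windows, 1 held a CArG box of its own and 1 held no match.
Egr2, chr10:67537619-67537868, plus strand: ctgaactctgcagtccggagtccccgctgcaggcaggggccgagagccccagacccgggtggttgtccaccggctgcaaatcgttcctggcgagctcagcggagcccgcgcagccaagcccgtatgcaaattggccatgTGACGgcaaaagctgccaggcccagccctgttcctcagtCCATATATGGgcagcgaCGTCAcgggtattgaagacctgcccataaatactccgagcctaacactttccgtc
Egr4, chr6:85513590-85513839, minus strand: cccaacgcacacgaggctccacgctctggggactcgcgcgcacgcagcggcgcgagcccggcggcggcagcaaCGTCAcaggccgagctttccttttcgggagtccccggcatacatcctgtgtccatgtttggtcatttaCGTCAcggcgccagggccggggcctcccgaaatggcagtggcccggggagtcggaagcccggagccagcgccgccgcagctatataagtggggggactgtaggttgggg
Nab1, chr1:52500449-52500698, minus strand: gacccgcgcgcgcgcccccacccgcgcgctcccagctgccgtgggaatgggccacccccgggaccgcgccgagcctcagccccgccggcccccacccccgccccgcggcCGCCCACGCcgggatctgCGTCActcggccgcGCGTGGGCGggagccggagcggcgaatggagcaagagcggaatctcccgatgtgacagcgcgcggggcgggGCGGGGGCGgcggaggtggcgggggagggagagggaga
Nab2, chr10:127666704-127666953, minus strand: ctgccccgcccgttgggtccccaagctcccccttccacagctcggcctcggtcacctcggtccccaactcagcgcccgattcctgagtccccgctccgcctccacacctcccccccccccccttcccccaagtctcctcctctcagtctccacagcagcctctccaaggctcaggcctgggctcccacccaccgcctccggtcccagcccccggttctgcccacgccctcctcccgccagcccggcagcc

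The Egr2 window held 1 CArG box, which began 72 bases before the start, and 2 core CREs. Egr4 held 2 core CREs and no CArG box. Nab1 held 3 Egr sites, beginning 141, 109 and 38 bases before the start, and 1 core CRE. Nab2 held none of the 4 motifs in these 250 bases. GC content of the windows was 61.6% for Egr2, 68.0% for Egr4, 80.8% for Nab1 and 72.8% for Nab2. A match is a description of letters and not a measured binding site.

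No gene of the route that switches Egr genes on passed the test. Of 20 tested members 0 passed in either direction, 15 lay higher and 5 lower, and the median log2 change was 0.11, beside 0.01 over all tested genes. Crebbp, a coactivator that CREB recruits, was 101 ± 33.95 in controls and 142 ± 26.9 in conditioned samples (SD). Mkl2, a coactivator of serum response factor, was 1053 ± 102 and 1216 ± 69.9. Their limma unadjusted p was 0.0548 and 0.123, and adjusted p = 0.9998 for both. The 95% interval of the Crebbp log2 change ran from -0.01 to 1.08. Srf itself read 158 ± 43.5 and 197 ± 80.5, with limma unadjusted p = 0.39. Among genes described as Egr targets in neurons, 0 of 20 passed, with 14 higher and 6 lower and a median of 0.05. The smallest p belonged to 2 genes of low level, the neurotrophin receptor gene Ngfr at 6.36 ± 4.77 and 3.69 ± 5.85 and the matrix protease gene Mmp9 at 9.38 ± 5.04 and 6.08 ± 6.66 (SD, n = 4; limma unadjusted p = 0.142 and 0.297).

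Egr2 targets known from Schwann cells, which in cortex are read mainly from oligodendrocytes, also held no gene past the threshold. Of 7 tested of 8 listed, 2 lay higher and 5 lower, with a median log2 change of -0.39. Prx, encoding periaxin, was near the floor at 1.88 ± 1.76 and 4.87 ± 2.97 (SD, n = 4; limma unadjusted p = 0.111). The oligodendrocyte markers Mag and Cnp stand in both lists, and the oligodendrocyte list as a whole had a median of -0.45. NuRD subunits, through which Nab proteins repress, had 0 of 13 past the threshold, 5 higher and 8 lower, with a median of -0.05. Gatad2a was 99.6 ± 22.8 and 80.0 ± 31.4, and Gatad2b 84.7 ± 27.3 and 97.96 ± 15.8 (SD, n = 4; limma unadjusted p = 0.235 and 0.344). Chd4, the subunit that Nab2 binds, was 581 ± 48.1 and 621 ± 75.6, with limma unadjusted p = 0.525.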

How the data were processed

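Total RNA from 8 samples was sequenced, 4 per group by the sample titles. The authors deposited 1 table of 22609 gene symbols, named FPKM, whose signal values are gene read counts divided by a factor per sample and are not length corrected. All values above 0 were whole multiples of a step per column (100%, within 0.01 of a read). TopHat and HTSeq are named without versions, with the human build hg19, per the submitters' processing notes. The sources used here do not give strandedness, the annotation or how the factors were set. Reads of a gene and of an overlapping or antisense partner therefore cannot be told apart. Within groups, the chi-square per degree of freedom of recovered reads was 2.5 to 23.6 over 12 library pairs, so none was a copy.

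The members and lists were chosen with earlier results of these data known. The 14704 genes whose mean value was 1 or more were tested as log2(value + 1) in limma 3.58.1 under R 4.3.3 with a variance trend, two-sided, Benjamini-Hochberg adjusted, at 0.05. edgeR 4.0.16 and DESeq2 1.42.0 ran on recovered reads. limma and edgeR, and the spread test, were tested on simulated data. Relations over samples used exact permutation over all pairings (SciPy 1.17.1). Same-numbered samples of the 2 groups deviated together (r of 0.22 to 0.55, above 0.1 in all 4), but in only 1 of 4 was the same number the best match. Control replicates 1 to 4 matched best with conditioning replicates 1, 1, 4 and 3. The labels do not say that the numbers pair the samples, and this check of the values did not settle it. The main limma fit had no block, the blocked fit was an alternative, and the spread test and the relations took no account of the numbers. GC content came from the longest GENCODE vM21 transcript, by symbol, for 13260 tested genes (90.2%), and the correction subtracted a lowess curve (span 0.3) per library, fitted on genes with a mean log2 above 5. It and the variance trend of the spread test were added after seeing the data. Named list genes were the 2 of smallest p in each list, and for each member the 2 genes most like it, passing over unnamed loci; 1 list gene this rule names is not reported here. Srf and Chd4 were added after their values were seen.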

Additional observations from a re-analysis of the deposited data

How the results depend on the processing

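No member passed under any of the 20 alternatives run for it, among them pseudocounts of 0.1 and 10, no filter, a filter of 10, equal column totals, quantile normalization, array weights, the replicate number as a block, GC correction, and edgeR and DESeq2. The replicate block gave 0 genes and 0 members past the threshold, with or without GC correction, and changed no call (Egr3 0.10, adjusted p = 0.997; Nab2 0.18, adjusted p = 0.997, limma). Genes called were 0 throughout, except 1 gene without conditioning replicate 4, so the range with a sample left out was 0 to 1. Members called ranged from 0 to 0. The sign of the log2 change turned with the sample left out for 5 members and stayed negative for Nab1. With each sample left out in turn it ranged from -0.16 to 0.10 for Egr1, -0.17 to 0.40 for Egr2, -0.32 to 0.54 for Egr3, -0.075 to 0.28 for Egr4, -0.33 to -0.0048 for Nab1 and -0.16 to 0.50 for Nab2. With array weights Egr1 turned to 0.10, and Egr2 stood at 0.28, Egr3 at 0.38, Egr4 at 0.44, Nab1 at -0.32 and Nab2 at 0.37. Egr3 stood at 0.43 with edgeR and 0.44 with DESeq2, and Nab2 at 0.34 and 0.35. With equal column totals Egr1 was -0.08, Egr3 0.04 and Egr4 0.06, and with quantile normalization Egr1 was -0.16. None of these passed. The 1 member with changed spread, Egr3, became 0 with the group median, the variance trend and GC correction, and 0 with any sample left out (0 to 0). Over all genes, 56 passed that test, against 24 with a pseudocount of 10, 35 with the group median, 12 with the variance trend, 30 with GC correction and 5 to 47 with a sample left out. The 3 relations among members became 0 without the 2 samples farthest from the median of the first member, and 1 with GC correction. The order of levels kept 3 of 6 places with the median transcript length, which uses shorter transcripts. The cause of the other changes was not tested. The fold intervals of Egr3 (0.511 to 2.24) and Nab2 (0.603 to 2.14) show the precision that 4 samples per group allow.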
